A study of Mus musculus with 6 samples.

Results

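The 35 genes described here are interferon-induced and antigen presentation genes, chosen by name from a fixed list. Each was measured as the probe sets that carry its symbol and no other symbol. All 35 were found among the 23152 genes of the array, with 337 probe sets in all and between 2 and 23 per gene. The rule picks genes by symbol alone and sets no threshold on signal or difference, though the list was drawn up with earlier results of these data known.

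The cells were neural stem cells grown from mouse cortex at embryonic day 14.5. Cultures of 3 cell lines, numbered 2, 7 and 8, were each given 1 of 2 adenoviruses, one for Cre recombinase (Ad-Cre) and one for green fluorescent protein (Ad-GFP). Per the series design, Cre turns on a mutant IDH, which the series title names as IDH1 R132H, and Ad-GFP cells are the control. Both viruses were given at 100 MOI, with a wash after 24 hours, so both groups had met adenovirus and neither shows these genes in cells without virus. No array carries Cre without the mutant allele, so Cre and mutant enzyme cannot be told apart. The sources used here name neither the promoter of the mutant allele nor the mouse strain. Each line and virus gave 1 Affymetrix array, 3 arrays per virus. The labels do not say whether the lines came from separate embryos, so p-values reach no further than these lines. Each SE and p combines a gene's own spread between lines with the spread of genes of similar signal. Title and transduction label group the arrays alike, while a description entry with the values M and WT runs the other way in line 8. Across genes, the Ad-Cre minus Ad-GFP differences taken by title correlated at 0.371 between lines 2 and 7, 0.397 between lines 2 and 8, and 0.556 between lines 7 and 8.

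Interferons are secreted proteins that warn cells of infection. Type I interferon binds its receptor and activates Stat2, which works with Irf9 at DNA sites called interferon-stimulated response elements. The genes this turns on block viral RNA and proteins, raise the sensors of foreign nucleic acid, and raise the machinery that shows peptides on class I molecules of the major histocompatibility complex. Interferon gamma, which has its own receptor, also induces guanylate-binding proteins and class I genes. In healthy brain tissue, class I display is known to be low.

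The median difference between Ad-Cre and Ad-GFP over the 35 genes was 0.02 log2 units, beside 0.03 over all 23152 genes. In a limma fit blocked by line, 0 of the 35 genes passed an adjusted p of 0.05 over all genes, as did 0 genes of the array (0%). At an unadjusted p under 0.05 there were 8 of the 35, or 22.9%, where 12.6% of all genes were past that level. Of these, 4 were higher with Ad-Cre (Gbp2, Ifit3, Gbp3 and Tap1), or 11.4% beside 7.04% of all genes. The other 4 were lower (H2-K1, Ifit2, Mx2 and Stat2), also 11.4%, beside 5.58% of all genes. The list thus split evenly between the directions and did not move one way. The direction was shared by all 3 lines for 14 of the 35 genes, or 40%, against 38.3% of all genes. Of these, 6 were higher in every line (17.1%, with 22.1% of all genes) and 8 were lower (22.9%, with 16.2% of all genes). The arrays of the 2 viruses did not overlap for 5 of the 35, or 14.3%, against 20.9% of all genes. Exchanging the line 8 labels left 1.21% of all genes higher and 0.592% lower at an unadjusted p under 0.05. In that fit 0 of the 35 genes were past an unadjusted p of 0.05 in either direction. Without line 7, Stat2, Mx2, Tap1 and Gbp3 were no longer past it, and without line 8, Stat2, Ifit3, Tap1 and Gbp3 were not. Without line 2, Ifit3 was no longer past it, and H2-D1 was past it in the lower direction. Of all genes, 9.5% were higher and 7.99% lower at that level without line 2. The shares were 4.53% and 4.16% without line 7, and 4.61% and 3.81% without line 8.

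**Figure D1:**
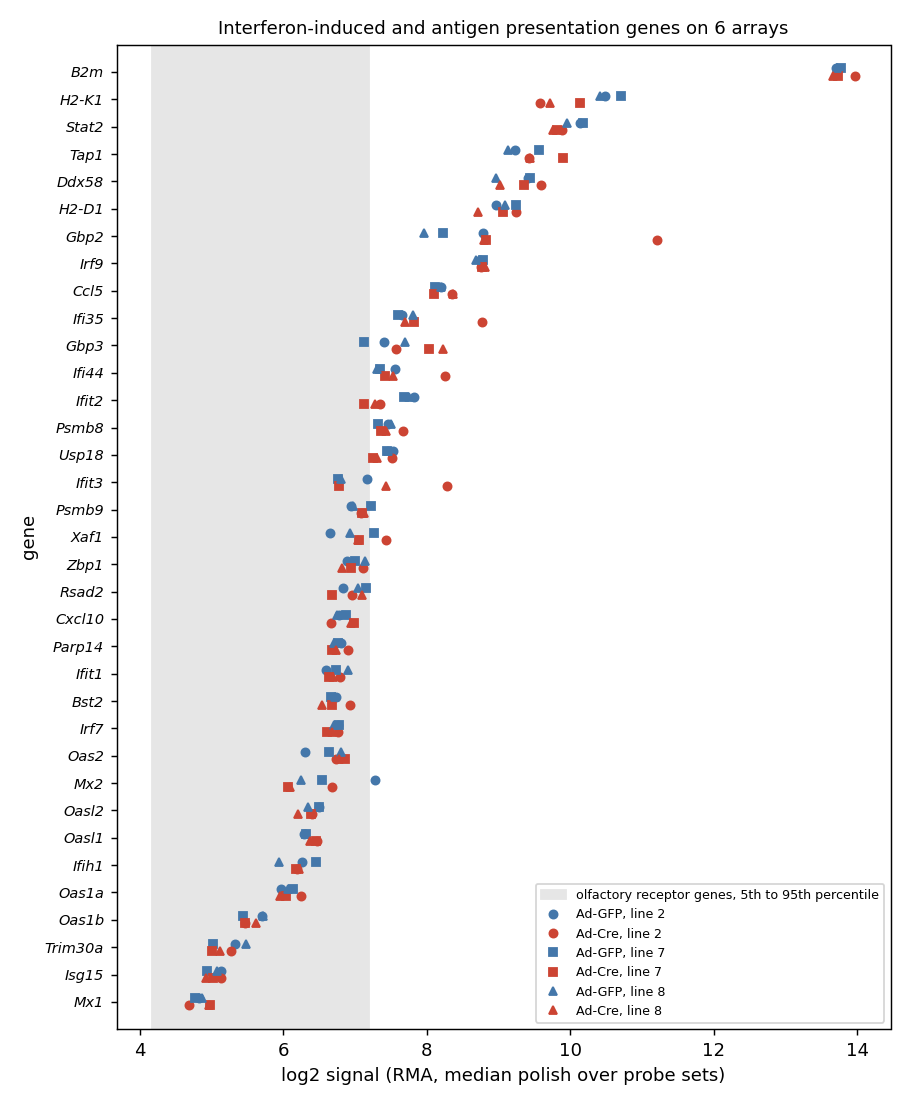
Log2 signal of each of the 35 genes (rows, ordered by mean signal) on the 6 arrays, with colour for the virus and marker shape for the line. The grey band spans the 5th to 95th percentile of 1075 olfactory receptor genes, and 19 of the 35 gene means lie at or below its upper edge of 7.19.

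Many of the best known interferon-induced genes gave dim signals with either virus. As a reference for dim signal, chosen after the data were seen, 1075 olfactory receptor genes were read on the same arrays. Such genes belong to sensory neurons of the nose. Their means had a median of 5.12 and a 95th percentile of 7.19, and they have a median of 1 probe set, fewer than most of the 35 genes. Of the 35 genes, 19 had a mean at or below 7.19, and 2 of these, Isg15 and Mx1, were at or below 5.12. Single probe sets of these 19 could be brighter, with the brightest of Ifih1 at 10.48, of Oas2 at 9.86 and of Mx2 at 9.75. Only for Isg15, Oas1a and Trim30a was the brightest probe set below 7.19. Probes differ in brightness, so the positions of the gene means describe dimness and do not rank transcript amounts. No detection calls were used, and a dim gene can have its difference understated.

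The genes above 7.19 numbered 16 and included B2m, H2-K1, Stat2, Tap1, Ddx58, H2-D1, Gbp2 and Irf9. B2m, the light chain of class I molecules, was the only one of the 35 with signals over 13 on every array. Of 9 neural stem cell markers 8 were above 7.19, with Nes between 11.58 and 12.35 and Sox2 between 12.97 and 13.53, and Prom1 was not. At an unadjusted p under 0.05, 0 of the 9 were higher with Ad-Cre and 4 were lower (Prom1 at -1.31, Msi1 at -0.48, Pax6 at -0.28 and Fabp7 at -0.12). Of all genes, 7.04% were higher and 5.58% lower at that level, which is the background for every marker count here. Among markers of other lineages, 1 of 5 astrocyte markers was higher and 3 lower, 1 of 5 neuron markers higher and 2 lower, 0 of 5 oligodendrocyte lineage markers higher and 1 lower, and 2 of 8 fibroblast and pericyte markers higher and 2 lower. The largest of these were Pdgfra at -2.72, Snap25 at -2.45, Acta2 at -2.35 and Dcx at -1.80. The part of these lineages in the results was not tested. Of 15 microglia and macrophage markers, cells that carry many of the 35 genes, 8 were above 7.19 and 7 were not. Those above it were Cx3cr1, Tyrobp, Fcer1g, C1qa, C1qb, Tmem119, Cd68 and Trem2. Those at or below it were Ptprc, Aif1, Csf1r, Itgam, C1qc, P2ry12 and Sfpi1. The mean of the 15 lay between 7.14 and 7.15 on Ad-GFP arrays and between 7.22 and 7.28 on Ad-Cre arrays. At an unadjusted p under 0.05, 2 markers were higher with Ad-Cre (Cd68 and Sfpi1) and 0 were lower. Of 7 lymphocyte markers 0 were above 7.19, of 4 dendritic cell markers 1 was, and of 8 endothelial markers 1 was. The part of such immune and vessel cells was not tested either. In bulk RNA, fewer cells with a transcript and less transcript per cell cannot be told apart.

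The line 2 Ad-Cre array stood apart from the rest. Its correlations over genes ran from 0.969 to 0.976, and those among the remaining 5 arrays from 0.988 to 0.996. On it Mki67, of dividing cells, read 10.10 against 12.43 to 12.84 elsewhere. Of 5 astrocyte markers, the filament gene Gfap read 11.27 on it against 7.48 to 8.33 elsewhere. Within line 2, Gfap and S100b were higher with Ad-Cre by 3.79 and 1.0, while Aldh1l1, Gja1 and Aqp4 read -1.43, -0.47 and -0.28, and the median of the 5 was -0.28. Values of the 35 genes that rest on that array are given with and without line 2. In the fit without line 2, 5.23% of all genes passed an adjusted p of 0.05, beside 0% with all lines. It was also 0% without line 7 and without line 8. That share of 5.23% stands beside each adjusted p without line 2 given below.

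The promoters were searched for the letters of sites that the pathway is known to use. RefSeq promoter windows of GRCm38.p6, 250 bases before to 50 after each annotated start, were held for 27 of the 35 genes. Those without an entry were Oas1b, Oas2, Mx1, Mx2, Usp18, Ccl5, Parp14 and Zbp1. The core letters of the interferon-stimulated response element, GAAA, then any 2 bases, then GAAA, on either strand, were in 15 of 32 windows of these genes (46.9%) and in 3.44% of all 32851 windows. TTCNNNGAA, the letters of the gamma-activated site, were in 15.6% and 8.30%. GGGANTTCC, a form of the NF-kappaB site, was in 3.12% and 1.68%. In these windows 1 pair of different motifs overlapped, in Bst2. The following 60-base windows are shown because they hold the response element in genes on either side of an unadjusted p of 0.05, with the matching letters in capitals. Gbp3 and Ifit3 were higher with Ad-Cre and Stat2 lower at an unadjusted p under 0.05, while Isg15 and Ifit1 were not past that level.
Gbp3, chr3:142559977-142560036, plus strand: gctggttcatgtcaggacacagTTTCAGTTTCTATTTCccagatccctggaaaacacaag
Ifit3, chr19:34583365-34583424, plus strand: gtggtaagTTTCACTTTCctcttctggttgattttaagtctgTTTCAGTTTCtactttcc
Stat2, chr10:128270251-128270310, plus strand: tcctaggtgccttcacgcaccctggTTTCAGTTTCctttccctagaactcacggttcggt
Isg15, chr4:156200856-156200915, minus strand: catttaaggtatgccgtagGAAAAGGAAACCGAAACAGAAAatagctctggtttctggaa
Ifit1, chr19:34640769-34640828, plus strand: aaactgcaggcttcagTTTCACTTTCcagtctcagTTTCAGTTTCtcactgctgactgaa

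Isg15 thus held 3 matches in its window, Ifit1, Ifit3 and Gbp3 held 2, and Stat2 held 1. The element was in 4 of the 7 genes with a promoter entry and an unadjusted p under 0.05, and in 10 of the 20 other genes. It was in 3 of the 4 higher genes and 1 of the 3 lower ones. A match of letters describes the sequence and does not show that a factor was bound.

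Among the signalling genes, Stat2 read lower with Ad-Cre in every line, while no difference was resolved for its partner Irf9. The genes were not tested against each other. Stat2 read 10.14, 10.17 and 9.96 with Ad-GFP in lines 2, 7 and 8, and 9.88, 9.82 and 9.77 with Ad-Cre. All Ad-Cre arrays were below all Ad-GFP arrays, which was so for 8.57% of the 35 genes (3 of them) and 8.89% of all genes. The difference was -0.27 ± 0.09 log2 units (SE, n = 3 lines; limma adjusted p = 0.364). Of its 20 probe sets 10 were lower in every line and 0 higher in every line. The brightest was not among those 10. It read -0.43 and -0.26 in lines 2 and 7 and 0.10 in line 8, with a mean of -0.20 (unadjusted p = 0.197 in limma).

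Irf9, the DNA-binding partner of Stat2, read 8.74, 8.78 and 8.69 with Ad-GFP and 8.75, 8.77 and 8.81 with Ad-Cre. The groups overlapped, and the 95% interval of the difference ran from -0.20 to 0.29. Irf7, the factor that amplifies interferon production, was dimmer, at 6.76, 6.77 and 6.70 with Ad-GFP and 6.76, 6.61 and 6.67 with Ad-Cre. It was lower by small amounts in all 3 lines, with an interval from -0.28 to 0.15. Of its 15 probe sets 6 were lower in all 3 lines and 1 higher. The mean of its probe sets gave -0.23 (unadjusted p = 0.0476 in limma), while the brightest went the other way, at 0.28.

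The Ifit genes, whose proteins bind viral RNA, sit side by side on chromosome 19 and did not share a direction. Ifit2 read 7.82, 7.68 and 7.75 with Ad-GFP and 7.35, 7.12 and 7.28 with Ad-Cre. Every Ad-Cre array was below every Ad-GFP array, and the line differences were close, at -0.46, -0.56 and -0.46. The mean difference was -0.50 ± 0.09 (SE; adjusted p = 0.135), or 1.41-fold lower, and 4 of its 5 probe sets were lower in all 3 lines.

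Ifit3 read 7.16, 6.77 and 6.81 with Ad-GFP and 8.28, 6.78 and 7.43 with Ad-Cre. Its arrays overlapped between the viruses, since the line 7 arrays were nearly equal. The difference was 0.58 ± 0.22 (SE; adjusted p = 0.388) and 0.31 ± 0.16 without line 2 (unadjusted p = 0.0944 in limma). It rests on 2 probe sets, neither of which was higher in all 3 lines, and the brighter one read 0.20. Ifit3b, a close copy listed under the symbol I830012O16Rik, had differences of 0.83, 0.14 and 0.13 in lines 2, 7 and 8, and the arrays may not separate the copies. Ifit1, of the same cluster, lay between 6.60 and 6.90 on all arrays, with a difference of -0.04 ± 0.11 (SE).

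**Figure D2:**
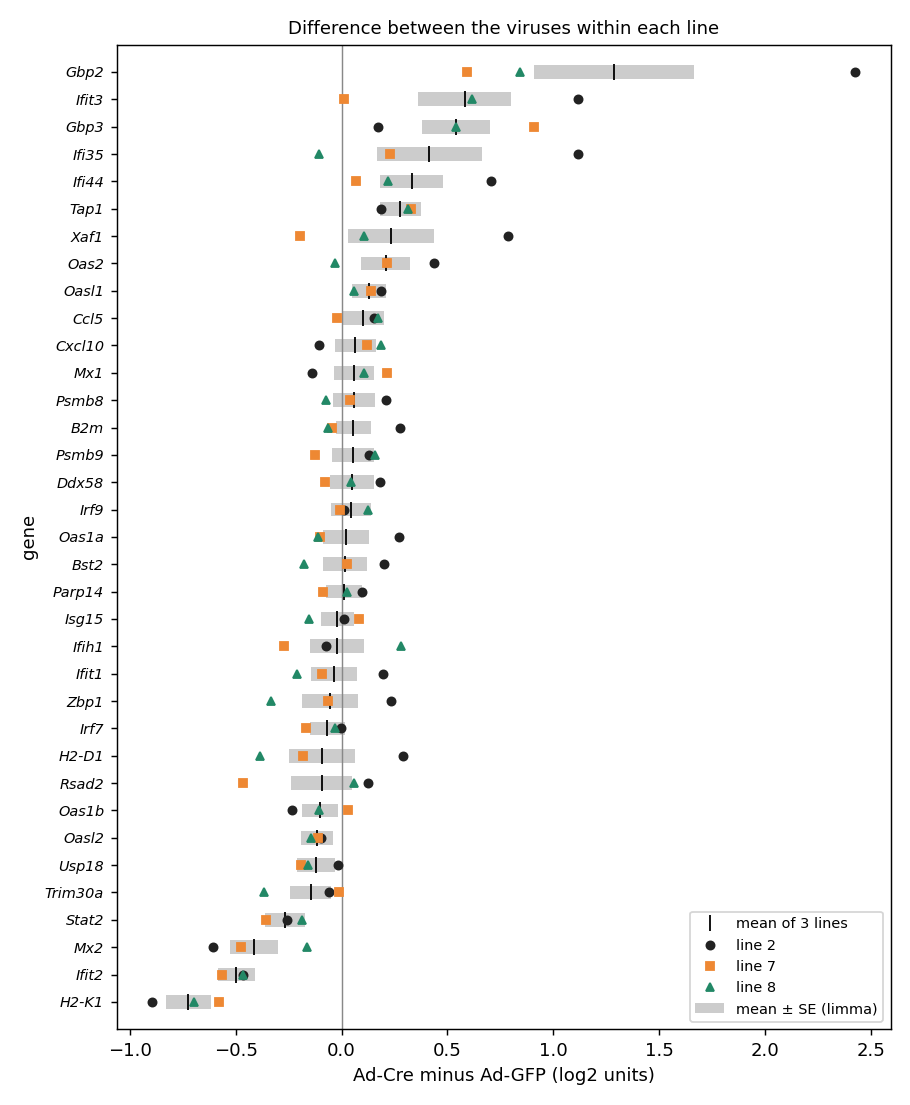
Ad-Cre minus Ad-GFP in log2 units for each of the 35 genes, with a marker per line, a tick for the mean of 3 lines and a grey bar for the mean ± SE from limma. Most genes lie near 0, Gbp2 is at the top with a mean of 1.29 and 2.43 in line 2, and H2-K1 is at the bottom with -0.72.

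Isg15, the small protein that is joined to others during an interferon response, showed no change of level that these arrays could resolve. It read 5.13, 4.94 and 5.08 with Ad-GFP and 5.14, 5.02 and 4.93 with Ad-Cre, within the range of olfactory receptor genes. The interval of its difference was -0.23 to 0.19. Usp18, the protease that removes Isg15 and damps the receptor, was lower by small amounts in every line, at -0.12 ± 0.09 (SE).

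The oligoadenylate synthetases make a messenger that switches on RNA decay. Oas1a, Oas1b, Oas2, Oasl1 and Oasl2 had signals between 5.43 and 6.86 on all arrays and differences from -0.12 to 0.21. Oasl1 was higher on all Ad-Cre arrays than on any Ad-GFP array, as were 12% of all genes, but by only 0.13 ± 0.08 (SE). Oasl2 was lower in all 3 lines, by 0.10, 0.11 and 0.15. RefSeq lists Oas1b, Mx1 and Mx2 as transcribed pseudogenes in the C57BL/6J assembly.

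Of the Mx genes, dynamin-like GTPases that trap viral particles, Mx1 stayed between 4.69 and 4.98. Mx2 read 7.28, 6.54 and 6.25 with Ad-GFP and 6.68, 6.07 and 6.09 with Ad-Cre in lines 2, 7 and 8. It was lower with Ad-Cre in each line, while line 2 was higher than the other lines with either virus, so the groups overlapped. The difference was -0.41 ± 0.11 (SE; adjusted p = 0.271). It came from part of its 10 probe sets, of which 3 were lower in all 3 lines and 1 higher, with means from -2.08 to 0.37. The brightest read -0.04.

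The cytosolic sensors of foreign nucleic acid, Ddx58 (RIG-I), Ifih1 (MDA5) and Zbp1, had differences between -0.05 and 0.05, with standard errors of 0.10 to 0.13. Ddx58 was the brightest of them, between 8.97 and 9.59. The chemokines Cxcl10 and Ccl5, which draw T cells, differed by 0.06 ± 0.10 and 0.10 ± 0.10 (SE). The effectors Rsad2, Bst2, Parp14, Trim30a, Xaf1, Ifi44 and Ifi35 differed by -0.15 to 0.41, with adjusted p of 0.451 or more.

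Within that group Ifi35, Xaf1 and Ifi44, singled out after their values were seen, were high on the line 2 Ad-Cre array. Ifi35, which binds Nmi, read 7.66, 7.60 and 7.81 with Ad-GFP and 8.77, 7.83 and 7.70 with Ad-Cre. By line the difference ran 1.12, 0.23 and -0.11. Xaf1, a pro-apoptotic partner of XIAP, differed by 0.79, -0.20 and 0.11, and Ifi44 by 0.71, 0.07 and 0.22. The means of Ifi35, Xaf1 and Ifi44 were 0.41, 0.23 and 0.33 over the 3 lines, and 0.06, -0.04 and 0.14 without line 2. Whether the effect of the virus differs between lines could not be tested, since each line has 1 array per virus.

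In line 2 the difference was over 0.5 in size for 7 of the 35 genes, or 20%, beside 16.9% of all genes. Of these, 5 were higher (14.3%, with 8.40% of all genes) and 2 lower (5.71%, with 8.53%). The line 2 difference was above 0 for 23 of the 35, or 65.7%, beside 55.3% of all genes. In line 7 the count over 0.5 in size was 4, or 11.4% beside 7.48%, with 2 higher (background 3.81%) and 2 lower (3.68%). In line 8 it was 4, or 11.4% beside 6.34%, with 3 higher (background 3.30%) and 1 lower (3.04%). Differences above 0 numbered 14 in line 7 (40%, beside 55.4% of all genes) and 16 in line 8 (45.7%, beside 52% of all genes). The medians of the 35 were 0.15, -0.05 and -0.03 in lines 2, 7 and 8, and the medians of all genes 0.03, 0.02 and 0.01.

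The guanylate-binding proteins, interferon-induced GTPases that coat intracellular pathogens, included the largest difference of the 35 genes. Gbp2 read 8.79, 8.23 and 7.96 with Ad-GFP and 11.21, 8.82 and 8.80 with Ad-Cre. Every Ad-Cre array was above every Ad-GFP array, though the line 7 and line 8 Ad-Cre arrays were only just above the line 2 Ad-GFP array. The mean difference was 1.29 ± 0.38 (SE; adjusted p = 0.296), or 2.44-fold.

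Gbp2 is also known as a marker of reactive astrocytes, and its line differences of 2.43, 0.59 and 0.84 were unequal. In the same lines Gfap differed by 3.79, -0.19 and -0.56, S100b by 1.0, -0.01 and 0.84, Aldh1l1 by -1.43, -2.17 and -1.36, Gja1 by -0.47, -1.18 and -0.67, and Aqp4 by -0.28, -2.18 and -1.63. The astrocyte markers thus went both ways in line 2, and their part in the Gbp2 values was not tested. Without line 2 the Gbp2 difference was 0.72 ± 0.12 (SE; adjusted p = 0.0190). Of its 7 probe sets 6 were higher in all 3 lines, and the brightest read 0.90. A further 3 probe sets that the annotation shares with other symbols were left out.

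The promoter window of Gbp2 is shown whole because Gbp2 differed most. The capitals mark its match to the response element, which begins 59 bases before the annotated start.
Gbp2, chr3:142620413-142620712, plus strand: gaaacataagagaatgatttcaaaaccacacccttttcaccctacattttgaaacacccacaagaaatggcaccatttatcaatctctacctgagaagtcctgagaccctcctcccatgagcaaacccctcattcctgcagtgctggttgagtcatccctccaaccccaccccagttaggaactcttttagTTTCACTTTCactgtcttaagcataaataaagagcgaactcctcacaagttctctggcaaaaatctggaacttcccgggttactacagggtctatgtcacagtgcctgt

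Gbp3 read 7.41, 7.12 and 7.69 with Ad-GFP and 7.58, 8.03 and 8.23 with Ad-Cre. It was higher in each line, with the smallest difference in line 2 (0.17, 0.91 and 0.54), and the groups overlapped. The difference was 0.54 ± 0.16 (SE; adjusted p = 0.30), and 0.72 ± 0.13 without line 2 (adjusted p = 0.0278). Of its 11 probe sets 7 were higher in all 3 lines. Gbp2 had its largest difference in line 2, where Gbp3 had its smallest.

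**Figure D3:**
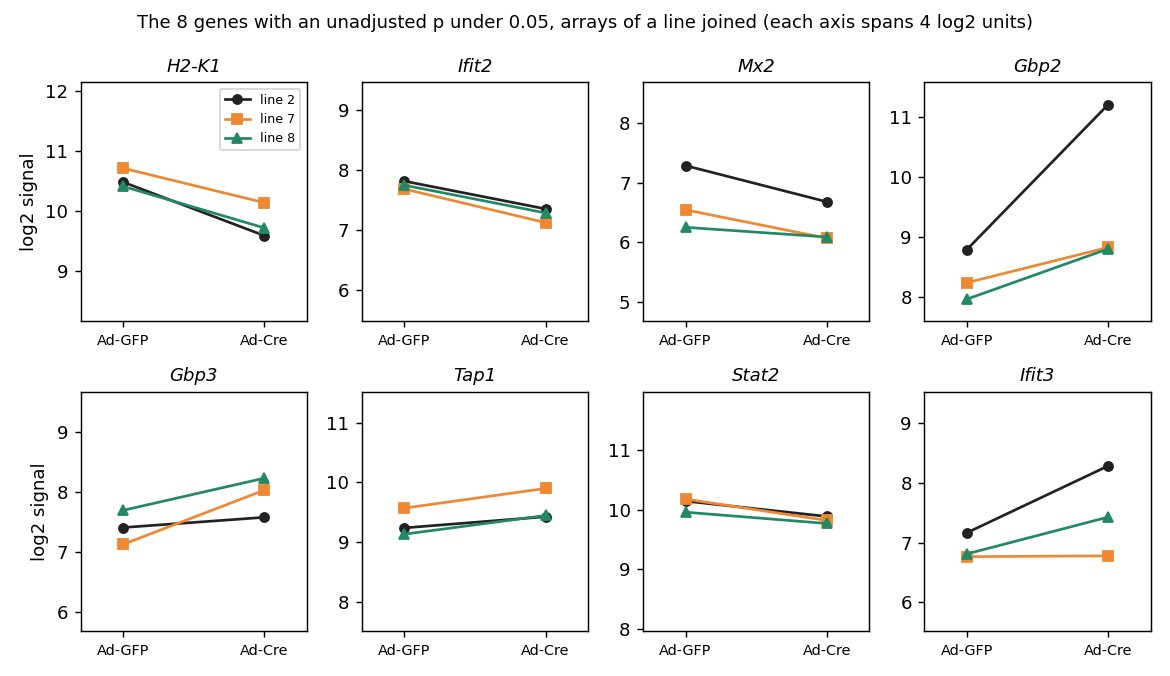
Log2 signal with Ad-GFP (left) and Ad-Cre (right) for the 8 genes with an unadjusted p under 0.05, with the arrays of a line joined and every axis spanning 4 log2 units. All 3 lines run down for H2-K1, Ifit2, Mx2 and Stat2, and up for Gbp2, Gbp3 and Tap1, while line 7 of Ifit3 is nearly flat.

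Class I antigen presentation genes did not share a direction. The heavy chain gene H2-K1 read lower and the peptide transporter Tap1 higher in every line. No difference was resolved for the light chain B2m. H2-K1 read 10.48, 10.71 and 10.41 with Ad-GFP and 9.58, 10.14 and 9.71 with Ad-Cre. All Ad-Cre arrays were below all Ad-GFP arrays, by 0.90, 0.58 and 0.70 within lines 2, 7 and 8. The difference of -0.72 ± 0.11 log2 units (SE; adjusted p = 0.103), 1.65-fold lower, had the lowest p of the 35 genes. All 7 probe sets had a mean below 0, from -1.77 to -0.19, and 6 were lower in every line. Without line 2 it was -0.64 ± 0.09 (adjusted p = 0.0109).

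H2-D1, the other classical heavy chain gene of the list, read 8.96, 9.24 and 9.10 with Ad-GFP and 9.25, 9.06 and 8.71 with Ad-Cre. It was higher in line 2 by 0.29 and lower in lines 7 and 8 by 0.18 and 0.39. The mean difference was -0.09 ± 0.16 (SE), with an interval from -0.50 to 0.32. Without line 2 it read -0.28 ± 0.11 (SE; unadjusted p = 0.0348 and adjusted p = 0.234 in limma). None of its 4 probe sets had the same sign in all 3 lines. H2-K1 and H2-D1 are close in sequence, and the arrays may not separate them fully. B2m read 13.70, 13.77 and 13.72 with Ad-GFP and 13.97, 13.73 and 13.66 with Ad-Cre, with an interval of the difference from -0.16 to 0.27.

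The promoter window of H2-K1, the gene with the lowest p, is shown with the 50 bases after the annotated start in capitals. None of the 3 motifs searched was in it, which says only that those letters are not in this window. Forms of the sites that differ from those letters were not searched for. The window is thus not shown to lack such sites.
H2-K1, chr17:34000298-34000597, minus strand: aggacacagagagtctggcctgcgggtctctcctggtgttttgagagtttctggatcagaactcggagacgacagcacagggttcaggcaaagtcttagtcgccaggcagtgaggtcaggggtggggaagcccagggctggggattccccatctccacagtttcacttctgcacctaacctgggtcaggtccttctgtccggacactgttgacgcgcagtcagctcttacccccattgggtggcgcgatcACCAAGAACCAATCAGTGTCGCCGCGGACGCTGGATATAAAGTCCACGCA

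Tap1, a subunit of the transporter that carries peptides to class I molecules, read 9.24, 9.57 and 9.13 with Ad-GFP and 9.42, 9.90 and 9.44 with Ad-Cre. It was higher in each line by 0.19, 0.33 and 0.31, but line 7 lay above the others with either virus, so the groups overlapped. The difference was 0.28 ± 0.10 (SE; adjusted p = 0.356). All 13 probe sets had a mean above 0 and 6 were higher in all 3 lines, while the brightest read 0.07.

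Psmb9, an immunoproteasome subunit, starts 225 bases from Tap1 on the other strand, and the 2 promoter windows share 275 bases. Psmb9 read 6.95, 7.23 and 6.98 with Ad-GFP and 7.08, 7.10 and 7.13 with Ad-Cre, so the groups overlapped, and its difference was 0.05 ± 0.10 (SE). Psmb8, the neighbouring subunit, read 7.46, 7.32 and 7.5 with Ad-GFP and 7.67, 7.36 and 7.43 with Ad-Cre, with a difference of 0.06 ± 0.10 (SE). The shared window is shown for that reason, with the bases between the 2 annotated starts in capitals.
Tap1, chr17:34187306-34187605, plus strand: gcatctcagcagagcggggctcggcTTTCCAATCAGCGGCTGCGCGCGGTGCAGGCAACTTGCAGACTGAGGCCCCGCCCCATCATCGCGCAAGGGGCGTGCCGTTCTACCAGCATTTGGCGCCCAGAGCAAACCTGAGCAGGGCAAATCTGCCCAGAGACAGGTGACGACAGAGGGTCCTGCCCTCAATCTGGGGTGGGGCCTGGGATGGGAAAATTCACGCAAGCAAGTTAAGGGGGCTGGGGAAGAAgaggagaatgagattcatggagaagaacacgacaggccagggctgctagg

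**Figure D4:**
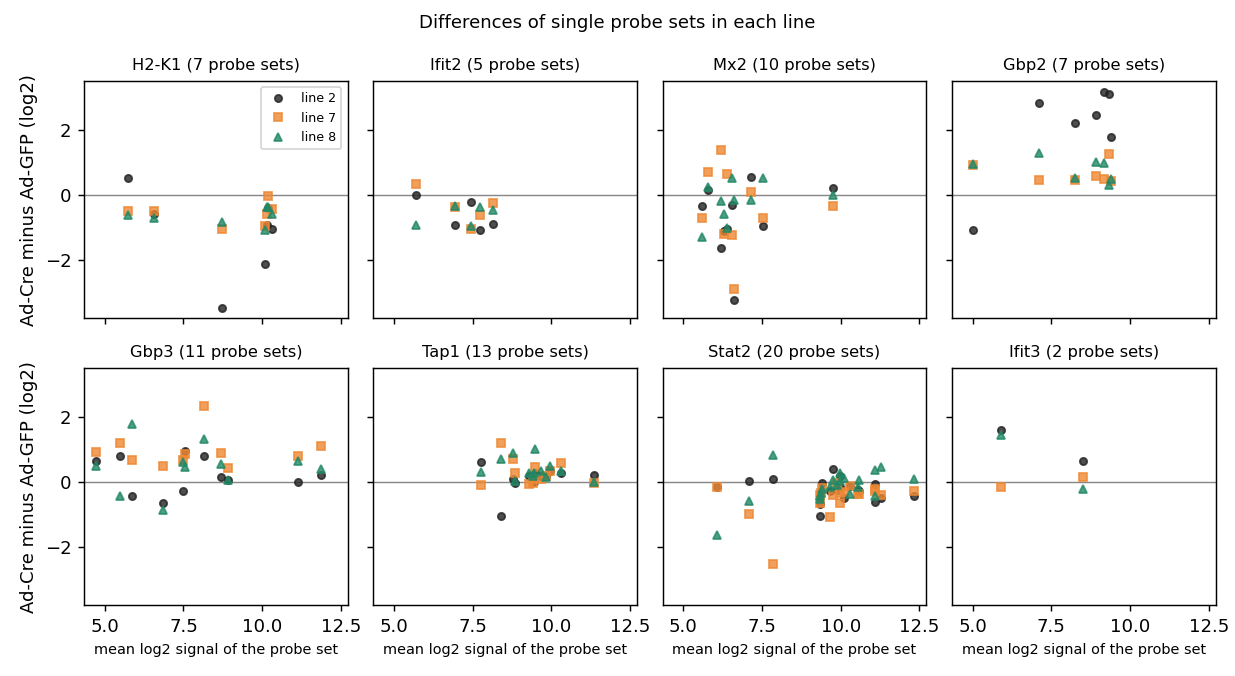
Ad-Cre minus Ad-GFP of each probe set (log2, vertical) against its mean log2 signal (horizontal) for the 8 genes with an unadjusted p under 0.05, with a marker per line. H2-K1 lies below 0 in 6 of 7 probe sets in all lines and Gbp2 above 0 in 6 of 7, while Mx2 and Ifit3 scatter to either side.

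The level of the 35 genes was also compared between lines. A moderated F test in limma found 0 of 35 past an adjusted p of 0.05 (0.00864% of all genes, or 2 genes), and 5 at an unadjusted p under 0.05 (14.3% beside 4.92% of all genes). Those 5 were Mx2, Ddx58, Tap1, Gbp2 and Ifit3, each with an adjusted p of 0.739. Mx2, Gbp2 and Ifit3 were highest in line 2, Tap1 was highest in line 7, and Ddx58 was lowest in line 8, at 8.97 and 9.02 against 9.36 to 9.59. For Gbp2 and Ifit3, line 2 includes the Ad-Cre array that stood apart. They read 11.21 and 8.28 on it, and 8.79 and 7.16 on the line 2 Ad-GFP array.

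The rest of the pathway was read from lists made by gene role, and no gene in any of them passed an adjusted p of 0.05. In each list below, the counts are of genes at an unadjusted p under 0.05, beside 12.6% of all genes. Of 18 interferon ligand genes, 2 were higher and 0 lower, with a median of -0.01. The interferon beta gene Ifnb1, named for its role, was dim on every array, at 5.15 to 5.47. The higher ligand genes were Ifnz (0.89 ± 0.27, with 1.69, 0.54 and 0.45 in lines 2, 7 and 8) and Il28a (0.32 ± 0.10), an interferon lambda gene. Each has close copies that arrays may not separate.

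Of 19 genes of interferon receptors and their signalling, 3 were higher and 0 lower, with a median of 0.10. Ifngr2, a chain of the interferon gamma receptor, was higher in all 3 lines by 0.48, 0.45 and 0.31, a mean of 0.41 ± 0.08 (SE; adjusted p = 0.170). Without line 2 it was 0.38 ± 0.07 (adjusted p = 0.0359). Stat3, which transmits cytokine signals, differed by 0.83 in line 2 and by 0.24 and 0.18 in lines 7 and 8, with a mean of 0.42, and of 0.21 without line 2. The corepressor Irf2bp2 was higher by 0.29 ± 0.10 (SE), and the feedback inhibitor Socs3 read 0.28 ± 0.11.

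Nucleic acid sensing had the widest spread, with 2 of 20 genes higher and 3 lower and a median of 0.04. Zc3hav1, the zinc-finger antiviral protein that binds CpG-rich viral RNA, read 8.68, 8.74 and 8.52 with Ad-GFP and 6.77, 8.0 and 7.62 with Ad-Cre. Every Ad-Cre array was below every Ad-GFP array, at -1.18 ± 0.25 (SE; adjusted p = 0.190), and at -0.82 ± 0.11 without line 2 (adjusted p = 0.0110). Its cofactor Trim25 was lower by 0.47, 0.16 and 0.20 in lines 2, 7 and 8, from dim levels, and is named after its values were seen.

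Tmem173, the STING adaptor that relays signals from cytosolic DNA, differed by line. It read 7.22, 7.95 and 7.77 with Ad-GFP and 7.18, 9.48 and 9.51 with Ad-Cre, so that it was higher by 1.53 and 1.74 in lines 7 and 8 and lower by 0.03 in line 2. The mean difference was 1.08 ± 0.37 (SE; adjusted p = 0.346), and 1.64 ± 0.11 without line 2 (adjusted p = 0.00169). In that fit 5.23% of all genes were past an adjusted p of 0.05. Without line 7 the mean difference of Tmem173 was 0.85 and without line 8 it was 0.75, neither past an unadjusted p of 0.05. Ticam1, the adaptor of Tlr3, was higher by 0.50 ± 0.12 (SE; adjusted p = 0.220), while the RNA sensor Tlr3 itself was lower, at -0.44 ± 0.13 (adjusted p = 0.303).

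Of 50 other interferon-induced genes, 7 were higher and 4 lower, with a median of 0.08. Ifitm2, which blocks viral entry, was higher by 1.64, 0.70 and 0.64 in lines 2, 7 and 8, a mean of 1.0 ± 0.22 (SE; adjusted p = 0.207). Without line 2 it was 0.67 ± 0.10 (adjusted p = 0.0166). Lgals3bp, a secreted glycoprotein, was higher by 0.57 ± 0.13 (SE; adjusted p = 0.209). The remaining guanylate-binding genes went both ways, with Gbp4 at 0.31 ± 0.07, Gbp6 at -0.35 ± 0.08, Gbp7 at -0.51 ± 0.13 and Gbp9 at 1.0 ± 0.28 (SE), the last 2 named after their values were seen. Over all 7 guanylate-binding genes measured, 4 were higher and 2 lower at that level.

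Of 23 further class I presentation genes, 2 were higher and 3 lower, with a median of -0.04. Lnpep, an aminopeptidase of cross-presentation, was higher by 0.51, 0.48 and 0.37 (mean 0.45 ± 0.07, SE; adjusted p = 0.120). The chaperone Calr differed by -0.26 ± 0.07 and the non-classical class I gene H2-T23 by -0.31 ± 0.08 (SE), each lower in all 3 lines. H2-Ke6 differed by -0.49 ± 0.11 (SE), and it encodes a dehydrogenase of the same chromosome region and not a presenting molecule. The other higher gene, named after its values were seen, was Mr1, which presents metabolites, at 0.92, 0.02 and 0.66 in lines 2, 7 and 8.

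None of 15 genes of the constitutive proteasome was past an unadjusted p of 0.05, and their median was -0.08. Psmb5, Psmb6 and Psmb7, the catalytic subunits that immunoproteasome subunits replace, are named for that role and differed by -0.21 ± 0.13, -0.15 ± 0.08 and -0.07 ± 0.09 (SE). Of 10 class II presentation genes 1 was higher, H2-DMa, which loads peptides, at 0.33 ± 0.11 (SE), and their median was 0.06. Ciita, the class II transactivator, named for its role, differed by -0.03 ± 0.09 (SE).

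**Figure D5:**
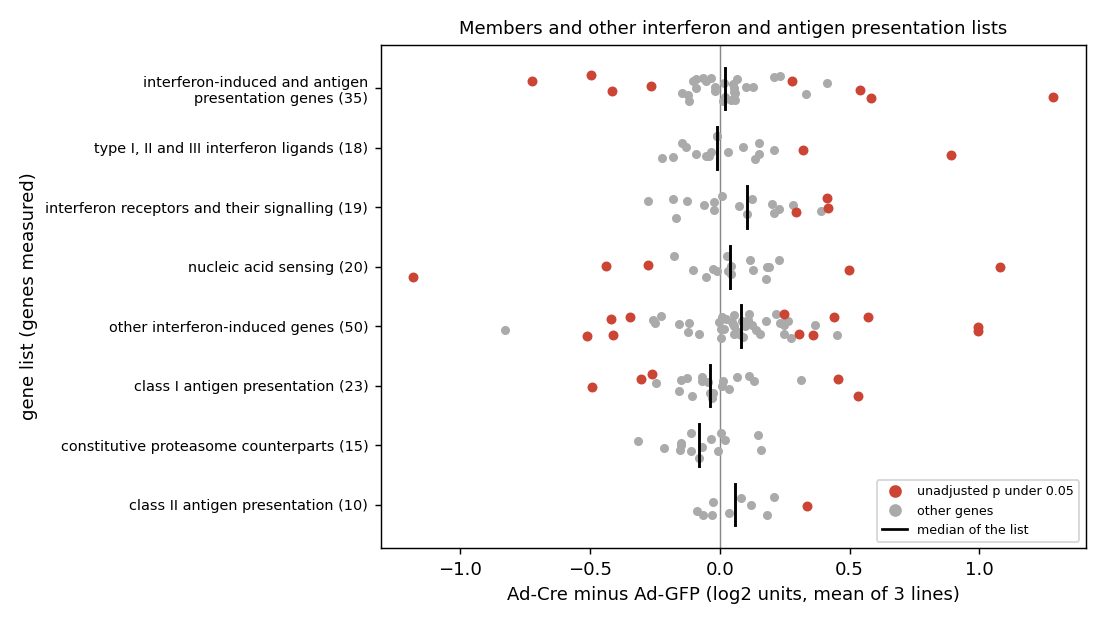
Mean Ad-Cre minus Ad-GFP difference (log2 units) of each gene in the list of 35 and in 7 other lists, with a red point at an unadjusted p under 0.05 and a black line at the list median. Medians lie between -0.08 and 0.10, and single genes such as Gbp2, Tmem173 and Zc3hav1 lie more than 1 unit from 0.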

How the data were processed

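RNA of 6 neural stem cell cultures was measured on 1 array each. The table deposited by the authors holds log2 probe set signals. The submitters' processing notes name Affymetrix Expression Console and RMA, and the sources used here give no version or genome build. RMA makes the arrays' signal distributions equal, which can hide shifts common to most genes. The arrays had a median signal of 8.38 to 8.43, and their number limits the precision.

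Arrays were grouped by title and transduction label. The description field runs the other way in line 8 and was tried as an alternative. Of 269751 probe sets, GEO's platform annotation gives 1 symbol to 233753, several to 5106 and none to 30892. Those with 1 symbol were reduced to 1 value for each of 23152 genes with Tukey's median polish, stopped after 20 iterations. Symbols can be old, and list genes under another symbol were matched through RefSeq synonyms.

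Differences (Ad-Cre minus Ad-GFP) were fitted in R 4.3.3 with limma 3.58.1, blocking on cell line and letting the variance follow a trend with signal. Tests were two-sided, and p-values were adjusted over all genes by Benjamini and Hochberg's method. The fit was tested on simulated data. The pairing comes from the series design, in which each line received each virus. Deviations from the virus mean correlated across genes at 0.226, 0.163 and 0.333 for arrays of the same number and at -0.227 to 0.003 otherwise.

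The 35 genes and the lists were chosen with earlier results of these data known. Values on all arrays are given for genes with an unadjusted p under 0.05 or a mean difference of 0.5 or more, for members with an adjusted line p under 0.05 (none), and always for Irf9, Stat2, Irf7, Isg15, B2m, H2-K1, H2-D1, Tap1, Psmb8, Psmb9 and Gbp2. Of each other list up to 4 genes with the lowest p are named. The median polish, line block, normalization, filter on dim genes, variance trend and line 8 labels were varied, and each line was left out.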

Additional observations from a re-analysis of the deposited data

How the results depend on the processing

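The counts here are of genes at an unadjusted p under 0.05. With no replicate block (no pairing), and with line as a random block, 1 of the 35 was higher, Gbp3, in place of 4. Each of these fits gave 3 lower genes in place of 4. Of all genes, 6.75% were higher and 5.24% lower at that level with no block. With the random block the shares were 8.1% and 6.18%. With the line 8 labels exchanged, 0 were higher and 0 lower at that level, beside 1.21% and 0.592% of all genes. The mean of probe sets gave 4 higher and 4 lower, beside 7.05% and 6.25% of all genes. Ifi44 (higher) and Irf7 (lower) were then among them. Stat2 and Tap1 were not (unadjusted p = 0.0517 and 0.0617 in limma). The brightest probe set alone gave 2 higher and 2 lower, beside 6.16% and 4.76% of all genes. A filter to genes above the median signal, which kept 10 of the 35, also gave 2 and 2. Of all genes it kept, 8.42% were higher and 7.83% lower. Leaving out 1 line at a time gave 1 to 3 higher and 2 to 5 lower genes. Of all genes, 4.53% to 9.5% were higher and 3.81% to 7.99% lower in those fits. The medians of the 35 ran from -0.04 to 0.07, and 0 to 3 of the 35 genes passed an adjusted p of 0.05. The 3 were H2-K1, Gbp2 and Gbp3, without line 2, when 5.23% of all genes passed. All other alternatives kept 0 of the 35 past it, beside 0% to 1.04% of all genes.

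Of the 15 genes given with all array values, small differences changed sign under some alternatives, and the cause was not tested. Leaving out 1 line at a time, Isg15 ran from -0.071 to 0.047, Psmb8 from -0.016 to 0.13, B2m from -0.054 to 0.11 and H2-D1 from -0.28 to 0.055. With the line 8 labels exchanged, Isg15 read 0.082, Irf9 -0.040, Psmb9 -0.050 and H2-D1 0.16. The mean of probe sets gave Isg15 0.029, and the brightest probe set gave Isg15 0.076, Irf7 0.28, Irf9 -0.078 and Psmb9 -0.13. The 8 genes at an unadjusted p under 0.05 kept their direction in every alternative in which they were measured. Most alternatives could not have changed it. Changes to the block, variance trend or signal filter leave the mean difference as it was. Each of the 8 had the same sign in every line, so leaving out a line could not reverse it. Only the line 8 exchange, the other probe set summaries and the quantile normalization could have done so. Dim signal limits what can be said of the 19 genes within the range of olfactory receptor genes.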
